A study of Mus musculus with 4 samples.

Results

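Mir218-1 and Mir218-2 are the mouse genes for the precursors of miR-218, and each lies in an intron of a Slit gene. They were found in the deposited table by gene ID (723822 and 723924), and these 2 rows were set against the 643 miRNA genes among the 2976 rows of the table. The samples were 4 small RNA libraries of 1 group, CD1 mouse embryos at E10.5 of the genotype Tbx18-Cre;CAG-tdTomato. In these embryos a red fluorescent reporter marks cells that have expressed Cre from the Tbx18 promoter, together with their descendants, and stroma cells around the wolffian duct were collected by flow sorting. The labels call these embryos wild type, and all 4 libraries carry both the Cre and the reporter, so there was no second condition and no control group. The labels leave unsaid which embryos, or how many, went into a library, and the spread between libraries may therefore be technical. The genes were selected on their identity with their levels in TPM in the same 4 libraries already known, so these levels are given as a description with no test.

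Slit proteins are secreted ligands of Robo receptors, a pair best known for steering growing axons. In the mouse kidney, Slit2 and Robo2 restrict the domain of Gdnf, the growth factor that makes the ureteric bud grow out of the wolffian duct, and embryos that lack either form extra buds. miR-218 is made from Slit introns and is known to repress Robo1 and Robo2 messages in several cell types, and it is also known as an abundant miRNA of motor neurons.

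Both hairpins are printed here from RefSeq (GRCm38.p6) because the way their sequences differ decides what the rows of the table can separate. Capitals mark the mature arms, with the 5p arm first.
Mir218-1: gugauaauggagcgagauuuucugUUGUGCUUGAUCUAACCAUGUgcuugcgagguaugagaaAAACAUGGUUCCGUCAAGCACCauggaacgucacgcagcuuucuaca
Mir218-2: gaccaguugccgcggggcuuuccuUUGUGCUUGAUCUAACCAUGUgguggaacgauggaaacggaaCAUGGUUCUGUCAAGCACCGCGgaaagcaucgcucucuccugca
Both hairpins are 110 nt long, so dividing by length does not favour either copy. Aligned end to end, they matched at 83 of 117 alignment columns, or 70.9%. The longest run they share is 22 nt, which holds the whole 5p arm and the base after it. A read of the 5p arm alone therefore has the same letters whichever copy it came from.

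The mature arms follow, with the seed, bases 2 to 8, in capitals.
miR-218-5p: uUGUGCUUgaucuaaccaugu
miR-218-1-3p: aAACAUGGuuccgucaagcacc
miR-218-2-3p: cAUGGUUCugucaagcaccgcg
The 5p arm, of 21 nt, is identical in both genes. The annotated 3p arms overlap by 19 bases, of which 1 differs, C12U, counted from the 5′ end of miR-218-1-3p. The arm of Mir218-2 starts 3 bases further along, so the 3p arms carry different seeds although they are close to identical. In the RefSeq table of mature miRNAs, 1 other gene, Mir7002, shares the 5p seed, 1 other, Mir496b, shares the seed of miR-218-1-3p, and 0 others share that of miR-218-2-3p. Neither Mir7002 nor Mir496b has a row among the miRNA genes measured here.

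Mir218-1 lies on the plus strand at chr5:48223942-48224051 (GRCm38), inside Slit2 and on the same strand. In the Slit2 transcript with the most exons, 39, it falls in intron 16, 2951 nt after the intron's first base, in an intron of 3662 nt. Of the 23 annotated Slit2 transcripts, 7 have it in an intron and 0 in an exon. Mir218-2 lies on the plus strand at chr11:35616816-35616925, inside Slit3 and on the same strand. It falls in intron 14 of the transcript with 36 exons, an intron of 9571 nt. Of the 4 annotated Slit3 transcripts, 1 has it in an intron and 0 in an exon. The starts of the hairpins lie 74.2% and 84.4% of the way along Slit2 and Slit3.

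Mir218-1 was among the miRNA genes listed at the highest levels in this stroma. Its level, in TPM (a read count per length of the gene, set to the same overall scale in every library), was 319, 804, 1020 and 291 TPM in libraries 1 to 4. Libraries 2 and 3 were high and libraries 1 and 4 low, with the highest 3.50 times the lowest. The mean was 608 ± 361 TPM (SD, n = 4). Behind these levels stood 8966, 18170, 21501 and 3450 reads, recovered from TPM and gene length. As a share of all miRNA reads, Mir218-1 took 1.02%, 1.67%, 2.20% and 2.36% in libraries 1 to 4. By this measure library 4 was the highest, not among the lowest, since its TPM values of all miRNA genes summed to 16399 TPM against 42494 to 65478 TPM in the other libraries. The 95% Wilson intervals of these shares were 0.994% to 1.04%, 1.65% to 1.70%, 2.17% to 2.23% and 2.28% to 2.44%, and no pair of them overlapped. They cover counting error only.

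Mir218-2 was measured in every library at a far lower level, 11.4, 26.7, 15.9 and 4.55 TPM in libraries 1 to 4. The mean was 14.7 ± 9.30 TPM (SD, n = 4). Library 2 was the highest and library 4 the lowest, by a factor of 5.87. These levels rest on 322, 604, 336 and 54 reads, so the value in library 4 has the least precision. As a share of all miRNA reads, Mir218-2 took 0.0365%, 0.0556%, 0.0343% and 0.0369%. Libraries 1, 3 and 4 thus lay close together, with overlapping Wilson intervals of 0.0327% to 0.0407%, 0.0309% to 0.0382% and 0.0283% to 0.0482%. The interval of library 2, 0.0513% to 0.0602%, lay above all of them.

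**Figure D1:**
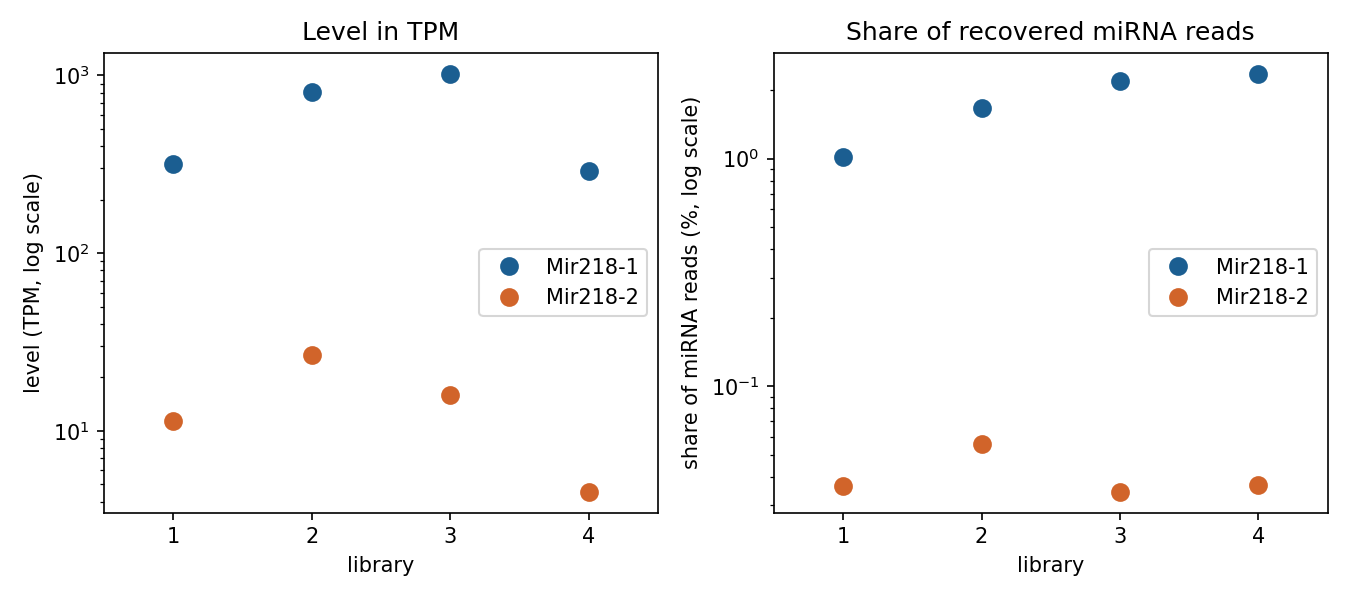
Level in TPM (left) and share of recovered miRNA reads in % (right) of Mir218-1 and Mir218-2 in each library, both on log axes, 1 point per library. Mir218-1 lies above Mir218-2 in all 4 libraries, and its share of miRNA reads spans 1.02% to 2.36% where that of Mir218-2 spans 0.0343% to 0.0556%.

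Mir218-2 was listed far below Mir218-1 in all 4 libraries. The log2 ratio of Mir218-2 to Mir218-1, with 1 TPM added to each, was -4.68, -4.86, -5.91 and -5.72 in libraries 1 to 4, with a mean of -5.29 ± 0.61 (SD, n = 4). Of the reads listed under either gene, Mir218-2 held 3.47% in library 1 (322 of 9288; 95% Wilson interval 3.11% to 3.86%) and 3.22% in library 2 (604 of 18774; 2.97% to 3.48%). It held 1.54% in library 3 (336 of 21837; 1.38% to 1.71%) and 1.54% in library 4 (54 of 3504; 1.18% to 2.01%). The libraries therefore fell into pairs, libraries 1 and 2 above libraries 3 and 4, with no overlap of intervals between the pairs. This pairing is one of the share, not of the level of Mir218-2. Of all miRNA reads in library 1, Mir218-1 took its lowest share, 1.02%, and Mir218-2 took 0.0365%, close to libraries 3 and 4. How reads that fit both genes were counted is not stated in the labels or notes, so the split between the copies, and with it the level of each Slit intron, is uncertain, while the sum over the copies does not depend on it unless such reads were dropped or counted more than once. The sum was 330, 830, 1036 and 295 TPM, with a mean of 623 ± 368 TPM (SD, n = 4), or 1.05%, 1.73%, 2.23% and 2.40% of all miRNA reads.

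**Figure D2:**
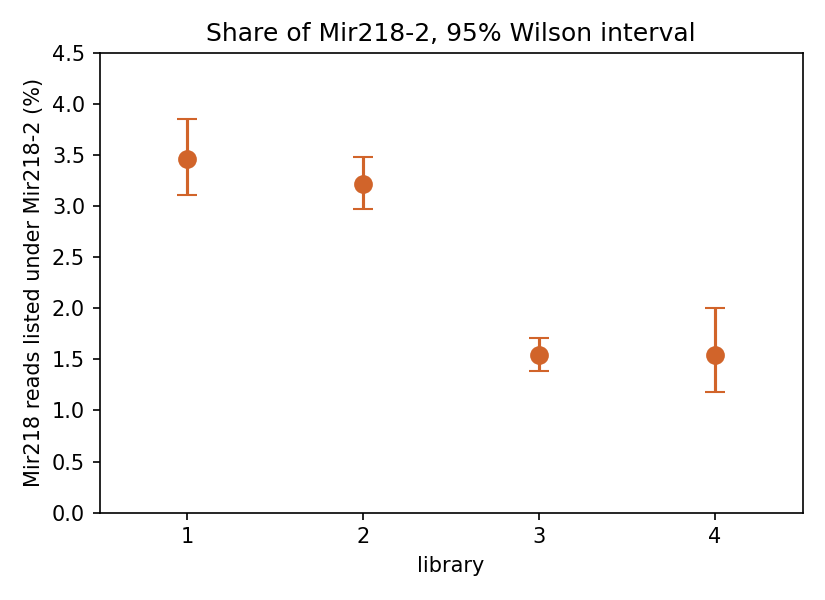
Share of reads listed under Mir218-2, in % of the reads of Mir218-2 and Mir218-1 together, for each library, with bars for the 95% Wilson interval, which covers counting error only. Libraries 1 and 2 lie at 3.47% and 3.22%, and libraries 3 and 4 both at 1.54%.

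An uneven split between copies was common in this table. Among miRNA names with numbered copies, 22 averaged 10 TPM or more over their copies together, and for 13 of these more than 90% of the level stood on 1 copy. Mir218, with 2.35% on its second copy, was the 7th most uneven, and the median over the 22 names was 6.27%. For 3 names, Mir199a, Mir1a and Mir92, the second copy was listed at 0 in all libraries and overlaps another row, so that 0 may be a matter of counting. Without these, 10 of 19 names had over 90% on 1 copy, Mir218 was the 4th most uneven and the median was 8.49%. The names next to it were let-7c, with 2.33% on Mirlet7c-2, and miR-125b, with 2.39% on Mir125b-2. In libraries 1 to 4 the second copy held 2.84%, 1.56%, 1.96% and 1.59% of let-7c, and 1.29%, 3.68%, 3.75% and 3.03% of miR-125b. Neither showed the order of libraries seen for the share on Mir218-2, which was high in libraries 1 and 2. The leading copy had the lowest copy number in its name for 9 of the 22 names, Mir218 among them. Among copies that lie in introns of paralogous genes, as those of Mir218 do, Mir128-2 in Arpp21 held 15.8% beside Mir128-1 in R3hdm1, and Mir103-2 in Pank2 held 20.7% beside Mir103-1 in Pank3. In libraries 1 to 4 these were 18.6%, 15.9%, 14.5% and 13.5% for Mir128-2, and 25.8%, 21.2%, 17.6% and 17.8% for Mir103-2. Both shares were thus higher in libraries 1 and 2 than in libraries 3 and 4, as the share on Mir218-2 was. Mir26a-1 in Ctdspl held 0.0314% beside Mir26a-2, known from the paralog Ctdsp2, and was lowest in library 1 (0.0161%) and highest in library 4 (0.0433%).

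**Figure D3:**
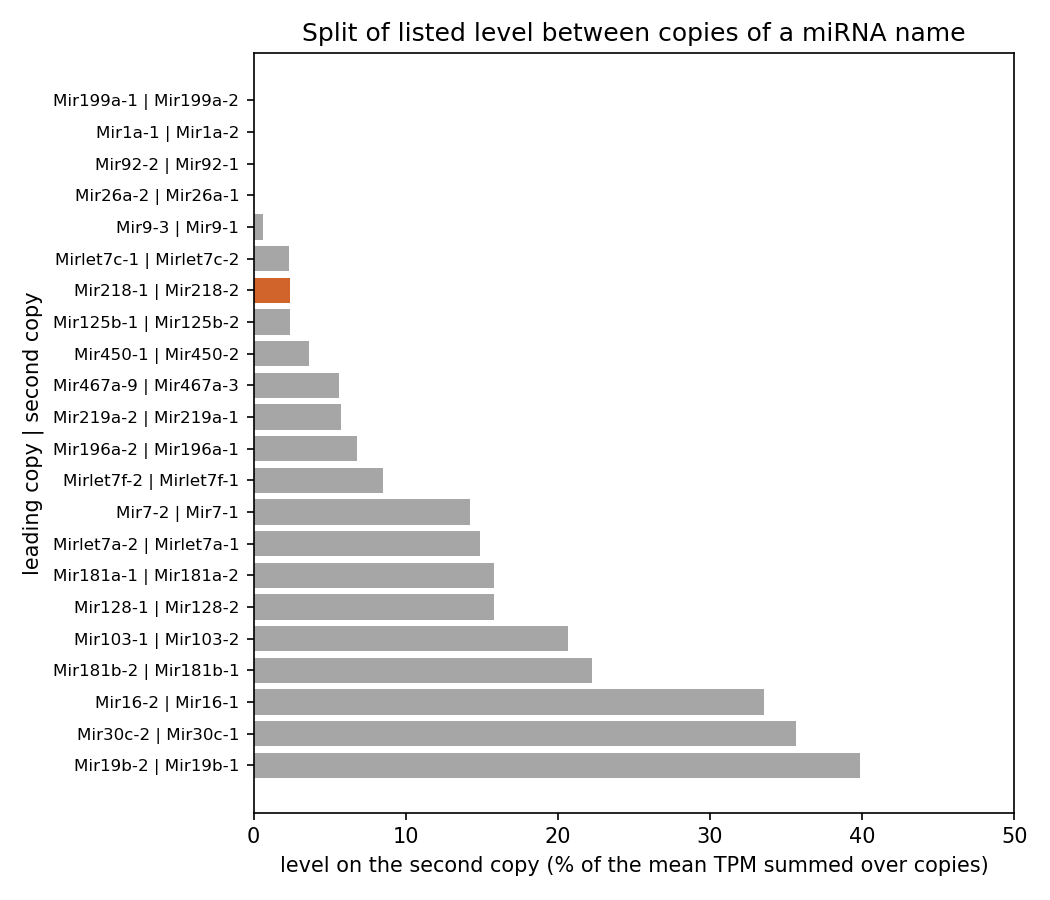
Level on the second copy, in % of the mean TPM summed over the copies, for 22 miRNA names with at least 2 copies, with the leading and the second copy named on the left and 1 bar per name. Mir218, coloured, stands at 2.35%, among the more uneven names, where Mir19b at the foot has 39.9% on its second copy.

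By mean TPM, Mir218-1 ranked 19 among the 643 miRNA genes and Mir218-2 ranked 145. Of the 643, 203 were listed at 0 in all libraries. Some of these, such as Mir214, Mir24-1 and Mir322, overlap another row, so their 0 may be a matter of counting. Ranks and shares of genes given here therefore hold for the levels as listed. Both reached at least 1 TPM in all 4 libraries, as did 213 of the 643 miRNA genes, or 33.1%. Within single libraries Mir218-1 ranked 37, 19, 12 and 16, and Mir218-2 ranked 153, 126, 155 and 156. By recovered reads, which do not mark down a long hairpin, Mir218-1 ranked 26, 14, 10 and 11 in libraries 1 to 4, and 12 by the mean share of miRNA reads. Mir218-2 ranked 138 by that mean. Among 440 miRNA genes with a value above 0 the median of the mean levels was 2.94 TPM, so Mir218-1 lay 207 times and Mir218-2 4.99 times above it. A host intron could be sought only for the 525 miRNA genes with a hairpin sequence, which gave their strand. Of these, 165 lay inside a protein-coding gene on the same strand and outside every annotated exon of it. Among the 165, Mir218-1 ranked 3, below Mir10b, in Hoxd3, and Mir335, in Mest, and Mir218-2 ranked 44. Genes with no strand, such as Mir99b at 2174 TPM and Mir615 at 652 TPM, were left out, whether or not they are intronic. Mir26a-2 at 1575 TPM, known from Ctdsp2, and Mir25 at 837 TPM have a strand but did not meet this rule on exons. The rank of 3 therefore holds only among the 165 genes that met it, not among all intronic miRNA genes. Of those 165 genes, 68 reached 1 TPM in every library, or 41.2%.

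**Figure D4:**
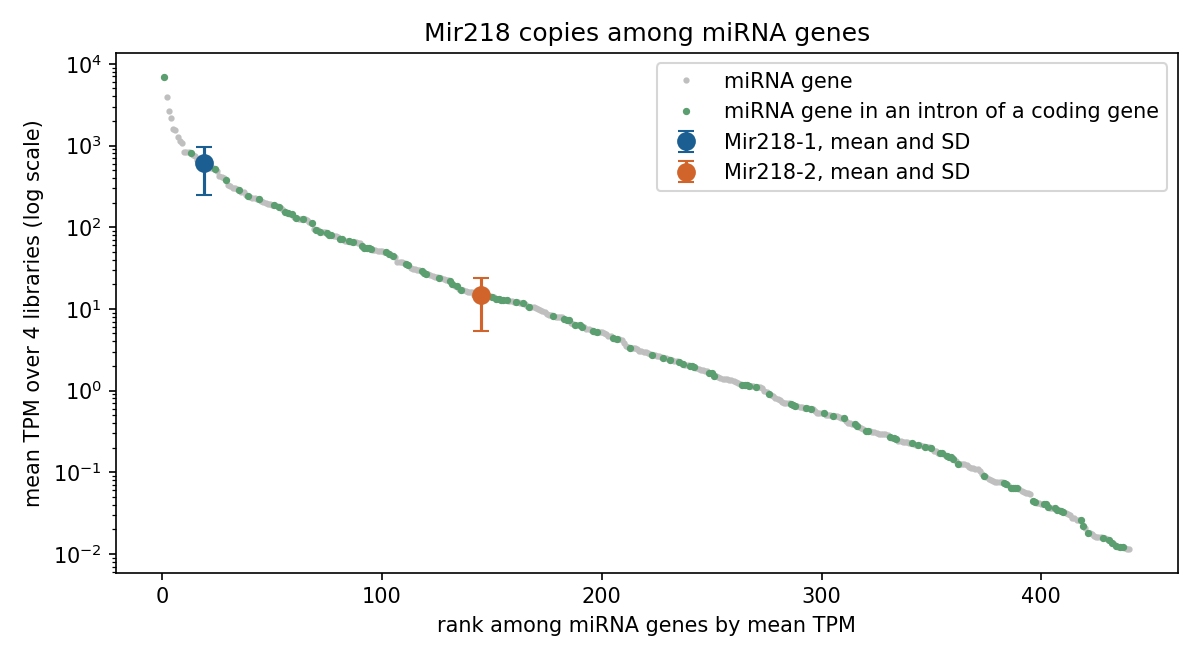
Mean TPM over the libraries (log axis) against rank for the 440 miRNA genes with a value above 0, with those placed in an intron of a coding gene in green and the Mir218 copies as large points with bars for the SD over 4 libraries. Genes with no strand could not be placed and are not in green, and neither are genes that did not meet the rule on exons, such as Mir26a-2. Mir218-1 stands at rank 19 and Mir218-2 at rank 145.

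The neighbours of Mir218-1 in this order are given for scale, since genes picked as next in rank have close means by choice. Next above were Mir409 at 668 ± 253 TPM, Mir125b-1 at 663 ± 583 TPM and Mir615 at 652 ± 256 TPM. Next below were Mir143, a smooth muscle miRNA, at 593 ± 365 TPM, Mir543 at 549 ± 244 TPM and Mir379 at 535 ± 321 TPM (SD, n = 4). Each of these means differed from that of Mir218-1 by less than the SD of either gene. Mir409 and Mir615 were above Mir218-1 in 3 of 4 libraries, Mir125b-1 in 1, and Mir143, Mir543 and Mir379 in 2. Around Mir218-2 the order was as close. Mir96, Mir377 and Mir330 lay next above at 15.0, 14.9 and 14.8 TPM, and Mir101b, Mir15b and Mir376b next below at 14.4, 14.4 and 14.2 TPM, with SDs of 5.93 to 16.2 TPM.

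The copies peaked in different libraries. Likeness was measured as the root mean square difference, over the 4 libraries, of log2(TPM + 1) minus each gene's own mean, among miRNA genes with a mean of at least 1 TPM. Mir218-2 differed from Mir218-1 by 0.53 on this scale, where the median of the 271 other genes was 0.67, and it was the 88th nearest of 272 genes ranked. Nearest to Mir218-1 were Mir19b-1 (0.07), Mir18 (0.11), Mir101b (0.11), Mir93 (0.15) and Mir384 (0.15), at mean levels of 2.71 to 208 TPM. All were high in libraries 2 and 3 and low in libraries 1 and 4. Nearest to Mir218-2 were Mir452 (0.05), Mir450b (0.12), Mir26a-2 (0.13), Mir330 (0.14) and Mir143 (0.14), all highest in library 2 and lowest in library 4. Values in TPM move with the total of each library. With the libraries rescaled to the same miRNA total, a check added after the data were seen, 4 of the 5 genes stayed among the nearest for either copy, but both genes in first place, Mir19b-1 and Mir452, dropped out. With a pseudocount of 0.1 TPM, also added after the data were seen, 3 of 5 stayed for Mir218-1 and 4 of 5 for Mir218-2. Mir452, a gene of low level at 1.29, 4.29, 2.39 and 0.109 TPM, then fell to place 170, so its place rests on the pseudocount. Mir18, Mir101b and Mir93 stayed among the nearest to Mir218-1 under both checks, and Mir26a-2, Mir450b, Mir330 and Mir143 among the nearest to Mir218-2.

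**Figure D5:**
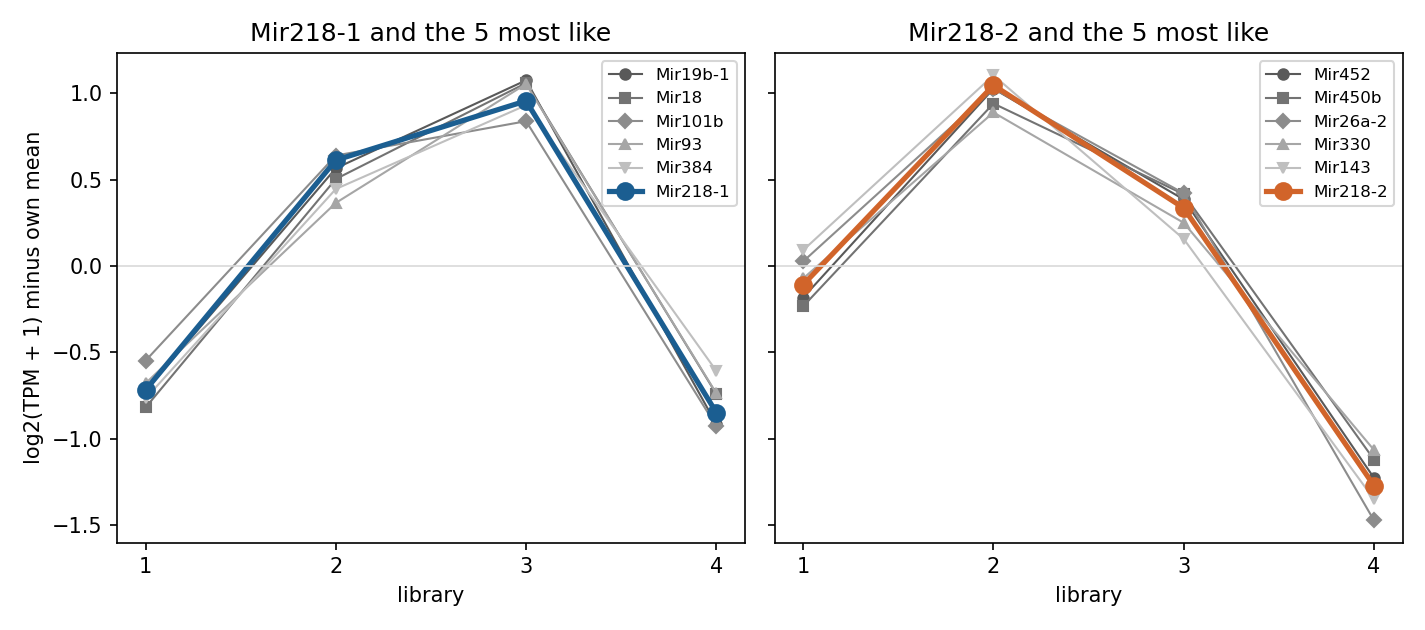
log2(TPM + 1) minus each gene's own mean in each library, for Mir218-1 (left) and Mir218-2 (right) with the 5 miRNA genes nearest to each, where lines join the values of 1 gene and libraries have no order. Mir218-1 and its neighbours peak in library 3, and Mir218-2 and its neighbours in library 2.

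Since miR-218 is also a motor neuron miRNA, it was set beside miRNAs of the nervous system. The list of neural and motor neuron miRNAs had 16 rows, of which 3 reached 1 TPM in every library, and the median of the mean levels was 2.30 TPM. The 1 row listed at 0 throughout, Mir124a-1, overlaps another row, so that 0 may be a matter of counting. Summed Mir218 was 330, 830, 1036 and 295 TPM in libraries 1 to 4, against 369, 59.1, 3107 and 104 TPM for the summed list. Mir218 was thus above the list in libraries 2 and 4 and below it in libraries 1 and 3. Most of the list was Mir9-3, a neural progenitor miRNA, at 345, 35.2, 2861 and 78.3 TPM. Mir124a-3, a copy of the neuronal miR-124, was at 0.23, 0.143, 8.67 and 0.955 TPM. Library 3, where Mir218-1 was highest in TPM, was also the highest for Mir9-3 and Mir124a-3. The other rows of the list with a level above 0 were highest there too, except for Mir132, Mir212 and Mir138-1. Mir132 and Mir212 were highest in library 2, and Mir138-1 in library 4. Library 2 had the lowest neural sum and the second highest Mir218-1 level. As a share of miRNA reads Mir218-1 was higher in library 4 than in library 3. The part of neural cells in the Mir218 level was not tested. Without library 3 the mean of Mir218-1 was 471 TPM. In bulk libraries fewer cells of a type and less RNA per cell cannot be told apart.

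Markers of other cell types were present at uneven levels. The mesenchymal list, with 4 rows, 2 of them listed at 0 (Mir214 and Mir199a-2, which overlap the row of Dnm3os), summed to 1327, 1255, 855 and 128 TPM in libraries 1 to 4. Summed Mir218 was 0.249, 0.661, 1.21 and 2.31 times that sum. It was above the epithelial miR-200 list, which has 5 rows and summed to 31.3 to 86.8 TPM, in 4 of 4 libraries. It was also above endothelial Mir126a, at 251 to 528 TPM, in 4 of 4 libraries, by factors of 1.18, 1.90, 1.96 and 1.18. It was 0.582, 0.743, 1.76 and 1.45 times the sum of the smooth muscle pair Mir143 and Mir145a, at 203 to 1118 TPM, and so above it in 2 of 4 libraries. It was above the striated muscle list, at 122 to 342 TPM, in 3 of 4 libraries, with a ratio of 0.965 in library 1. Most of that list was Mir206, at 327, 121, 101 and 216 TPM, and the median of its mean levels was 1.39 TPM. Summed Mir218 was above the erythroid list, at 0.878 to 11.9 TPM, in 4 of 4. Mir486 of the erythroid list and Mir1a-2 of the striated muscle list were also listed at 0 and overlap another row. These 0 values, and those of the mesenchymal list, may be a matter of counting, so the sums may be too low. Of the 24 listed genes of the Slit-Robo pathway, bud outgrowth and the lineage marker Tbx18, 0 had a row in this table, so host transcripts and receptors were not analysed here. Only 32 of its 2976 rows were matched to protein-coding genes, so a missing row does not show that a gene was not expressed. Within 500 kb of Slit2, the other row was the long non-coding 5730480H06Rik, 87.8 kb away, listed at 0.00225 TPM in library 1 and 0 in the rest. Within 500 kb of Slit3 it was Mir103-1, 73.9 kb away, at 66.7, 128, 129 and 17.9 TPM.

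What miR-218-5p could pair with in the Slit-Robo pathway was read from the annotation, as a description of sequence. The motif searched was AAGCACA, the complement of the 5p seed, on the sense strand of the longest annotated 3′ UTR of each gene (GENCODE vM21, GRCm38). Of 21020 genes with such a UTR, 2901 held it, or 13.8%, and 10 of the 15 listed pathway genes did. The list holds Robo1 and Robo2, which miR-218 is known to repress, so the 10 of 15 is not an unselected draw to set against 13.8%. Several listed UTRs are long, so each with a match is set beside UTRs of 0.8 to 1.25 times its length. Sites in the receptors Robo1 and Robo2 and in Slit2, the host of Mir218-1, are shown because they are members of the ligand and receptor pair, with the motif in capitals.
Robo1, chr16:73045334-73045355, plus strand: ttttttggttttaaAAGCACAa
Robo2, chr16:73895358-73895379, minus strand: ttttatttggtgatAAGCACAa
Robo2, chr16:73893032-73893053, minus strand: gtcacggcagacccAAGCACAg
Slit2, chr5:48304529-48304550, plus strand: gccaatactagcagAAGCACAt
Slit2, chr5:48306832-48306853, plus strand: gataattattagcaAAGCACAt
The UTR of Robo1, of 1733 nt, held 1 match, and 18.5% of UTRs of like length held at least as many. That of Robo2, of 3987 nt, held 2, and 8.31% of its like held at least as many. Robo3, with a UTR of 343 nt, held 1, and 3.09% of its like held at least as many. Robo4 held 0. Among the ligands, Slit2 held 2 in 3492 nt, and 6.58% of its like held at least as many. Slit1 and Slit3 held 0. Glce, an enzyme of heparan sulfate synthesis, held 2 in 2763 nt, and 4.39% of its like held at least as many. The Robo adaptors Srgap2 and Srgap3 held 1 each, and 38.4% and 42.5% of their like held at least as many. Srgap1 held 0. In the bud outgrowth pathway, the receptor genes Ret and Gfra1 held 1 each, and 21.2% and 26.3% of their like held at least as many. The ligand Gdnf held 0. Tbx18 held 1, and 22.9% of its like held at least as many. A match is not shown to be a site, and 0 matches says only that these letters are not in this window.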

How the data were processed

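The deposited table holds TPM, made by the authors from small RNA libraries read singly at 75 bp, per the series' design text, with 1 row per Entrez gene. The submitters' processing notes name the build mm10 (GRCm38) and limma, with no version. The aligner, counter and annotation are not stated there. The table's TPM sum was 2.33% to 7.22% of the full TPM scale. Rows were joined by gene ID to RefSeq GRCm38.p6 (2541 of 2976 matched, 525 of 643 miRNA genes with a hairpin sequence). Multiplying TPM by gene length and dividing by the worth of 1 read, found for each library, gave whole numbers for 100% of nonzero miRNA values (tolerance 0.01), and thus 883201, 1087240, 978210 and 146255 miRNA reads in libraries 1 to 4. The recovery was tested on simulated data. Reads are not independent molecules. Genes and lists were chosen with earlier results of these data known. Named genes are the 2 members, the 3 miRNA genes next above and below each, the 5 nearest in pattern, and listed genes. No levels were tested against each other, as there was 1 group, and Dixon's gap test was used to look for libraries that stand apart. The alternatives covered pseudocounts, rescaling, detection limits, the treatment of copies and leaving out each library. Scripts ran on biopython 1.88, numpy 2.4.6, matplotlib 3.10.9, pandas 2.3.3 and scipy 1.17.1 under Python 3.11.15.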

Additional observations from a re-analysis of the deposited data

Results flagged for a closer look

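The 38 sets of 4 values behind the levels, shares, ranks and lists given here were searched for a library that stands apart (Dixon's gap test, 95% level), and 6 did so, where chance flags about 1 in 20 (0.05). Mir218-2 took 0.0556% of miRNA reads in library 2, apart from the other libraries. Its rank of 126 in library 2 was apart as well, and rests on the same reads. Mir376b, next below Mir218-2 in level, was at 23.1 TPM in library 4 against 10.4 to 12.0 TPM in the others. In library 3 the epithelial list summed to 86.8 TPM, the neural marker list to 3082 TPM and the wider list of neural and motor neuron miRNAs to 3107 TPM, each apart from the other libraries. The last pair share Mir9-3, which supplied most of both sums.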

How the results depend on the processing

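Of 48 recomputed values, 43 moved by less than the spread between libraries, or, for counts, by a factor of 1.5 or less, and 0 changed sign. Leaving out a single library cannot move a mean by more than the SD between libraries. Those checks of the mean levels, the sum and the log2 ratio were therefore bound to fall among the 43 and say nothing of stability. The log2 ratio of Mir218-2 to Mir218-1 was -4.52 with a pseudocount of 10 TPM, which weighs on a gene at a mean of 14.7 TPM. With copies summed by name, Mir218 ranked 19 of 578 names, in place of rank 145 for Mir218-2. At least 10 TPM in every library was reached by 113 miRNA genes, against 213 at 1 TPM. With each library left out in turn, the rank of Mir218-2 ranged from 140 to 163, that of Mir218-1 from 15 to 24, and their mean levels from 10.6 to 18.03 TPM and from 471 to 714 TPM. The rank of 163 was without library 2. No paired analysis was possible because there is 1 group. Library 4, with 54 reads of Mir218-2, limits its value there.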
